A study of Mus musculus with 6 samples.

Results

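The genes of the mitochondrial ribosomal proteins were described in isolated lung endothelial cells (iLECs) with and without endothelial *Atp6ap2*. They were taken as every symbol of the deposited table that begins with Mrpl (large subunit) or Mrps (small subunit) followed by a number, leaving out symbols marked as pseudogenes (-ps). This gave 78 of the 24972 symbols, 49 of the large and 29 of the small subunit, and no symbol was left out as a pseudogene. All 78 passed the filter on low values and were tested. RNA-Seq compared 3 control samples (labelled *Atp6ap2* fl/Y, no Cre) with 3 *Atp6ap2* iECKO samples (labelled *Atp6ap2* fl/Y with *Cdh5-CreERT2*+). In the latter, the promoter of the endothelial gene *Cdh5* drives a Cre recombinase that tamoxifen switches on. The study's text counts fl/Y males and fl/fl females in either group and states that both sexes were analysed. *Xist*, given below, was high in some libraries of each genotype, so the labelled fl/Y may not hold for every library. Both groups received tamoxifen (100 µg) at P1, P2 and P3, so the drug was common to both and the Cre transgene was not. Lungs were taken at P7, and CD31+ cells were captured with antibody-coated beads. The labels give C57BL/6 as the strain, whereas the study's methods describe a mixed CD1 and C57BL/6 background.

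Mitochondria carry their own ribosome, the mitoribosome, which translates the few messenger RNAs of mitochondrial DNA, all of them for subunits of the oxidative phosphorylation complexes. Its ribosomal RNAs come from mitochondrial DNA, but every one of its proteins is encoded in the nucleus, made in the cytosol and imported. The small subunit reads the messenger RNA, and the large subunit joins the amino acids and threads the new chain through an exit tunnel toward the inner membrane. Some of its proteins descend from bacterial ribosomal proteins, and others were gained in mitochondria. The ribosomal RNAs and other genes of mitochondrial DNA were not analysed here.

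The members had no common locus. They lay on 17 chromosomes, and 19 of the 78 (24.4%) had a head-to-head neighbour, compared with 10.1% of 13738 tested coding genes. Such a neighbour is a coding gene on the opposite strand that reads away from the member. Its start lies upstream within 1000 bases of the member's start or slightly overlaps it. RefSeq promoters (GRCm38.p6, 250 bases before to 50 after the start) were matched for 69 members and searched on both strands for 3 motifs of factors known to control nuclear genes of mitochondria. The core of the NRF1 site, spelled GCGCA, any base and GCGC, was in 13 of 69 (18.8%, against 5.2% of 27025 RefSeq promoters and 10.6% of those of tested genes). CCGGAAG, the core bound by ETS factors such as GABP, was in 26 (37.7%, against 9.9% and 18.5%), and AAGATGG, the core of the YY1 site, in 13 (18.8%, against 7.3% and 7.9%). At least 1 of them was in 43 (62.3%, against 20.0% and 32.2%). These matches are letters in a window and not evidence of binding. The stretches below, each upstream of the gene's start and read along its strand, show each motif at least once and both large and small subunit genes, among them *Mrpl12*, which passed the test of genotype, and *Mrps27*, which had the largest difference of the small subunit. The capitals mark the NRF1 core in *Mrpl12* and *Mrpl9*, the ETS core in *Mrps27* and *Mrps22* and the YY1 core in *Mrpl52*, on either strand.
Mrpl12, chr11:120484521-120484600, plus strand: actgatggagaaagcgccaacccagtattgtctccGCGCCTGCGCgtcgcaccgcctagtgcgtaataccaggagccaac
Mrpl9, chr3:94443238-94443317, plus strand: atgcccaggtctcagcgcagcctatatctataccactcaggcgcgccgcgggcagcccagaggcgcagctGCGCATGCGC
Mrps27, chr13:99344706-99344785, plus strand: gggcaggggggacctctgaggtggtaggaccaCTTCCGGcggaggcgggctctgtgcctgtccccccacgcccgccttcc
Mrps22, chr9:98601680-98601759, minus strand: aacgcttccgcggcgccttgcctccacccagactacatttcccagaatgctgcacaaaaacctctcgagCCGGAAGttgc
Mrpl52, chr14:54426782-54426861, plus strand: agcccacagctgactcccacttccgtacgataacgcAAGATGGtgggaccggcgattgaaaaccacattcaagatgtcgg

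The libraries of the genotypes differed in several measures. Totals of normalized counts, the deposited values that the authors had scaled between libraries, were 26243878 to 28725799. Relative depth was estimated from the most frequent low value of each library. Only 21.1% to 40.8% of low values were whole multiples of that value within 0.01, so the estimate is rough. It was 1.0 to 1.04 in control and 1.25 to 1.55 in *Atp6ap2* iECKO libraries, so depth and genotype cannot be told apart. *Atp6ap2* was 7490, 5815 and 5681 in control and 4220, 2336 and 1982 in *Atp6ap2* iECKO libraries (log2 difference, *Atp6ap2* iECKO minus control, of -1.22, standard error 0.26, adjusted *P* = 0.0306 by limma). A gene is called higher or lower here where this adjusted *P* is below 0.05. The call of *Atp6ap2* was kept in 1 of the 6 fits that leave out a library, the 1 without *Atp6ap2* iECKO replicate 1 (log2 difference -1.54 to -1.0, adjusted *P* 0.00604 to 0.103 over the 6 fits by limma). *Xist*, transcribed from the inactive X chromosome, was 37703.6 to 47486.7 in 4 libraries and 19.3 and 31.7 in *Atp6ap2* iECKO replicate 2 and control replicate 3, although every label gives fl/Y. Endothelial markers differed little (15 tested, median log2 difference 0.03), with summed normalized counts of 345674 to 438870 in control and 362470 to 412556 in *Atp6ap2* iECKO libraries, and 1 of them, *Tek*, was called lower. Fibroblast markers were called lower for 12 of 14 (sums 155672 to 223191 in control, 61140 to 92593 in *Atp6ap2* iECKO; *Lum* was listed at 0 in a library), and mural markers for 9 of 14 (15056 to 22114 and 6160 to 7961). Proliferation genes were called higher for 7 of 12 (15685 to 29852 and 35490 to 43473). Epithelial (27139 to 73300 and 33575 to 40926, 1 of 14 called higher) and leukocyte markers (10394 to 18014 and 8707 to 23134, 0 of 13 called) overlapped. The part of these shifts in the results below was not tested, and in bulk RNA fewer cells of a type and less RNA per cell cannot be told apart.

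The first comparison asked which mitoribosomal genes differed with endothelial loss of *Atp6ap2*. *Mrpl12* was higher in *Atp6ap2* iECKO iLECs, and the other 77 did not pass the adjusted threshold of 0.05. *Mrpl12* encodes a protein of the flexible stalk of the large subunit, where translation factors dock, and is also known to bind the mitochondrial RNA polymerase. It lies on chromosome 11 of GRCm38 from 120484613 to 120489065 and has 5 exons. Its normalized count was 379.1, 515.7 and 444.1 in control and 656.2, 757.2 and 722.2 in *Atp6ap2* iECKO libraries. Every *Atp6ap2* iECKO library was thus above every control. The means were 446.3 ± 68.3 and 711.8 ± 51.3 (SD, n = 3), and the latter was 59.5% above the former. The log2 difference was 0.68 (standard error 0.14, 95% interval 0.36 to 1.0, adjusted *P* = 0.0274 by limma with Benjamini-Hochberg adjustment over 14456 genes). An exact two-sided permutation test gave *P* = 0.1, which is the lowest value possible with 3 libraries a genotype. The call was lost when any of 3 libraries was left out (replicate 3 of control, replicates 2 and 3 of *Atp6ap2* iECKO), and over the 6 fits that leave out a library the log2 difference was 0.57 to 0.79 with an adjusted *P* of 0.0244 to 0.107.

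Thus 1 of 78 members was called higher and 0 lower (limma), where 3.28% and 4.97% of all 14456 genes tested were called in those directions and 8.25% in either. Without adjustment, 18 members had a *P* value below 0.05 and a higher level, compared with 11.6% of all genes, and 0 had a lower one, compared with 12.3%. The libraries of the genotypes did not overlap for 28 members (35.9%), each higher in *Atp6ap2* iECKO iLECs, whereas 14.7% of all genes were higher without overlap and 15.0% lower. The log2 difference was above 0 for 71 of 78 members (91.0%), compared with 50.7% of all genes, and its median was 0.22 (quartiles 0.09 and 0.40, range -0.17 to 0.68), against 0.00 over all genes. Of the 7697 tested genes whose means lay in the members' range, 53.9% were above 0, with a median of 0.03, and 17.8% were higher without overlap. The differences were small. The 95% interval lay wholly above 0 for 18 members, within 1 log2 unit on either side of 0 for 64 and within 0.5 for 28. The plot of each member's difference shows the spread around this median.

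**Figure D1:**
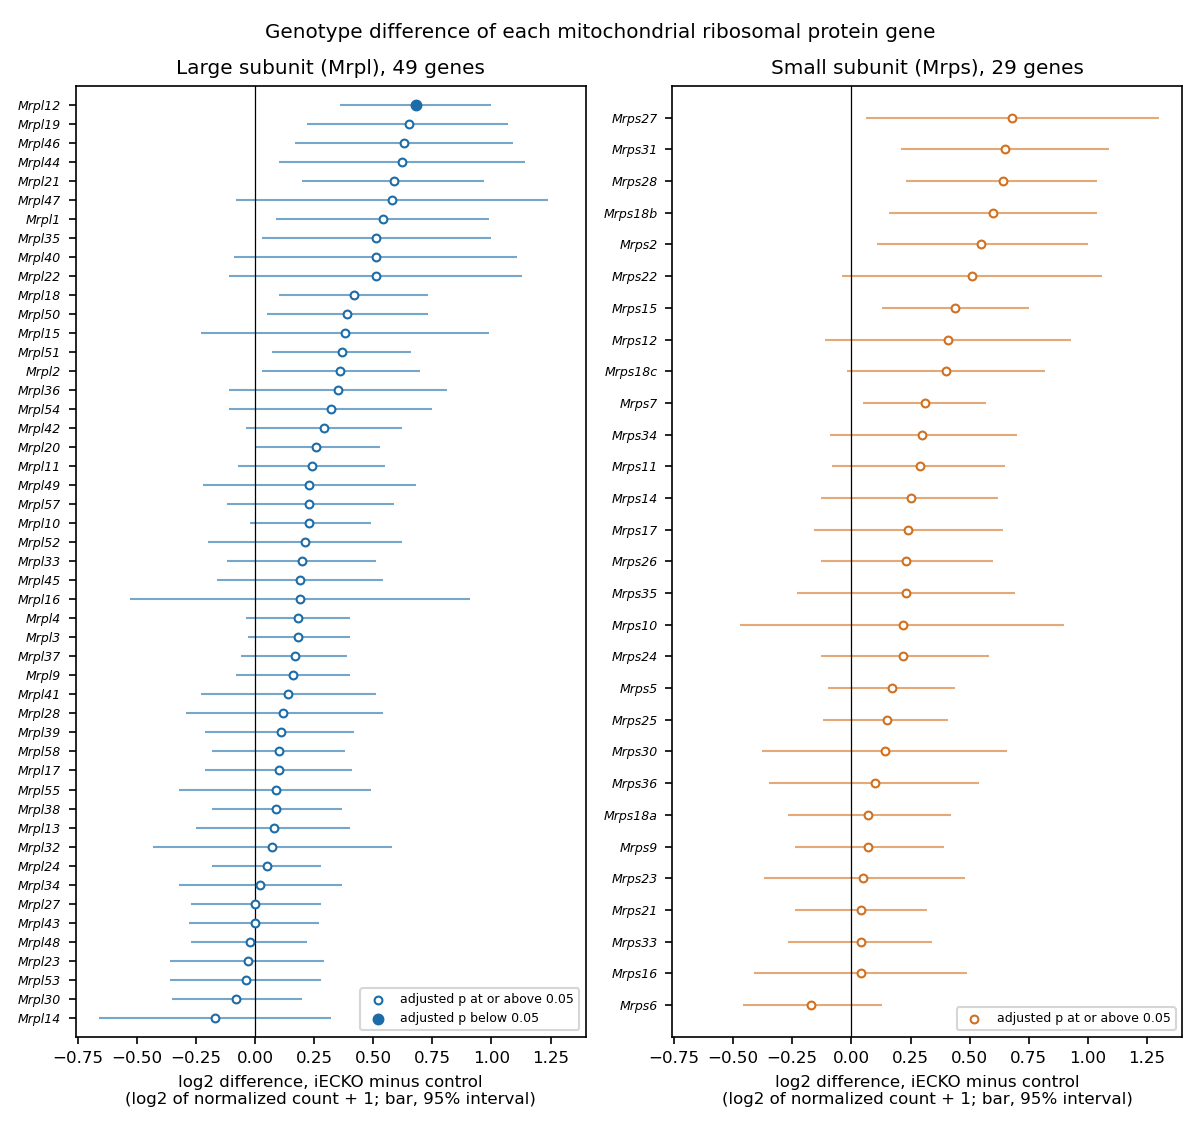
Log2 difference (*Atp6ap2* iECKO minus control, log2 of normalized count plus 1) of the 49 large and 29 small subunit genes, each with its 95% interval from limma; a filled point has an adjusted *P* below 0.05. Points lie right of 0 for 71 of 78 genes, and *Mrpl12* is the 1 filled point.

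Some of the genes that came next by *P* value are given here, with *Mrps27* added for its large difference. None of them passed the threshold. *Mrps31* and *Mrps27* were named by the rule that takes the 3 largest rises of this same fit. The others were picked after their values were seen. *Mrpl19*, also among the next by *P* value, is given below with the levels per kb. *Mrps28*, a small subunit protein, had normalized counts of 191.2, 206.9 and 221.6 in control and 257.7, 368.2 and 348.4 in *Atp6ap2* iECKO libraries (log2 difference 0.64, standard error 0.18, adjusted *P* = 0.0679 by limma). The genotypes did not overlap, and *Atp6ap2* iECKO replicate 1 was the lowest of its group. *Mrpl21*, the counterpart of bacterial L21, had 174.5, 155.2 and 208.4 in control and 256.0, 265.5 and 283.2 in *Atp6ap2* iECKO libraries (0.59, standard error 0.17, adjusted *P* = 0.0708 by limma). *Mrps31*, a protein of the small subunit head found only in mitochondria, had 132.5, 166.7 and 146.2 against 201.2, 278.8 and 223.9 (0.65, standard error 0.19, adjusted *P* = 0.0779 by limma). These genotypes did not overlap either, and *Atp6ap2* iECKO replicate 2 was the highest library for *Mrps31*. *Mrps15*, the counterpart of the early-binding bacterial S15, had a smaller difference and error, with 227.7, 246.0 and 266.6 against 350.7, 331.4 and 324.4 (0.44, standard error 0.13). *Mrps27*, a pentatricopeptide repeat protein of the small subunit, had a difference as large as that of *Mrpl12* and a wider spread, with 138.0, 229.7 and 258.3 in control and 252.2, 340.6 and 394.3 in *Atp6ap2* iECKO libraries (0.68, standard error 0.27, adjusted *P* = 0.173 by limma). Its genotypes overlapped, because control replicate 3 was above *Atp6ap2* iECKO replicate 1.

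At the other end, 7 members had a log2 difference below 0, and all 7 overlapped. *Mrpl14*, the L14 counterpart at the face between the subunits, had 144.1, 178.4 and 228.9 in control and 154.0, 150.9 and 178.1 in *Atp6ap2* iECKO libraries (-0.17, standard error 0.21), so control replicate 1 was the lowest library and control replicate 3 the highest. *Mrps6*, the S6 counterpart, had 458.9, 501.6 and 424.5 against 455.4, 383.8 and 396.0 (-0.17, standard error 0.13), and *Mrpl30*, the L30 counterpart, 402.4, 410.2 and 465.1 against 402.6, 417.1 and 390.8 (-0.08, standard error 0.12). *Mrps6* shares 19.9% of its exon bases with *Slc5a3* and a predicted gene on the same strand, and *Mrpl14* shares 11.2% with *Tmem63b* on the opposite strand. *Mrpl27*, whose bacterial counterpart reaches the peptidyl transferase centre, had means of 449.8 ± 34.8 and 450.3 ± 26.6 (SD, n = 3), with a 95% interval of -0.27 to 0.28 for the log2 difference. The plot of values by library sets these genes side by side.

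**Figure D2:**
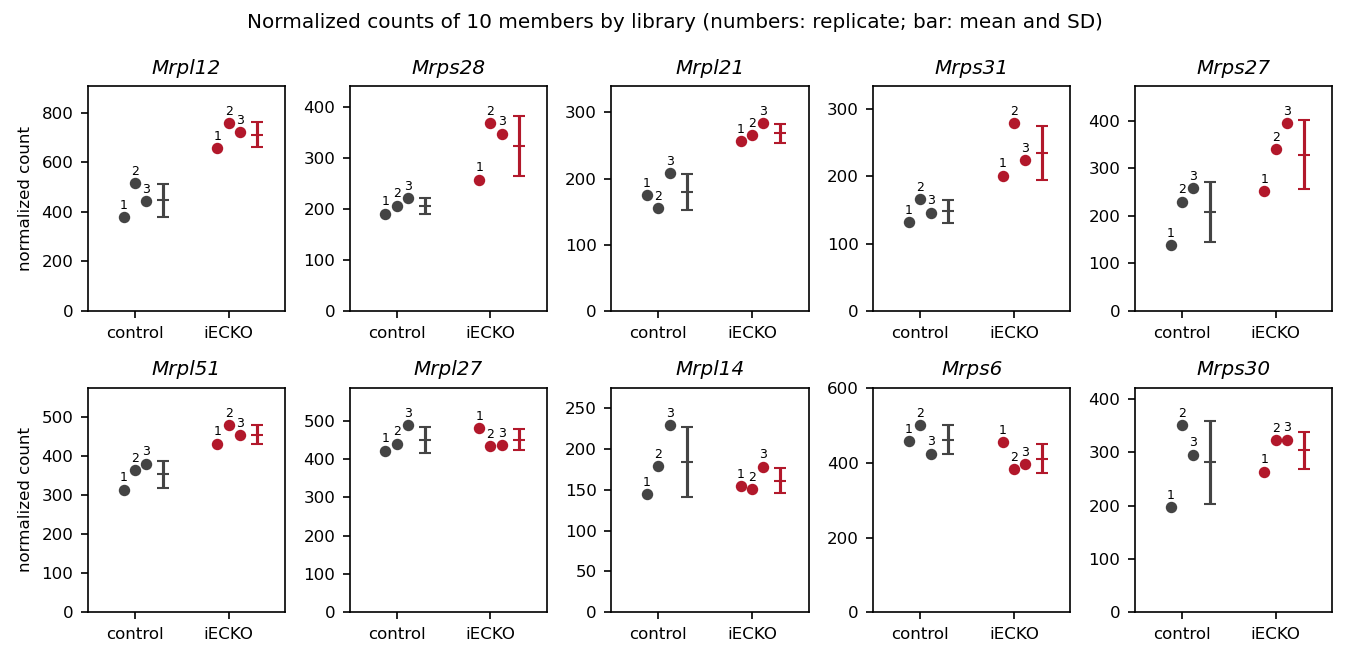
Normalized count (linear axis from 0) of 10 members in each of the 3 control and 3 *Atp6ap2* iECKO libraries, numbered by replicate, with the mean and SD of each genotype. The genotypes are apart for *Mrpl12*, *Mrps28*, *Mrpl21*, *Mrps31* and *Mrpl51*, and overlap for *Mrps27*, *Mrpl27*, *Mrpl14*, *Mrps6* and *Mrps30*.

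The next comparison set the subunits against each other. The median log2 differences of the large and small subunit genes were close, at 0.20 and 0.23. Of 49 large subunit genes, 43 had a difference above 0, 1 was called, 11 had an unadjusted *P* below 0.05 and 20 did not overlap. Of 29 small subunit genes, 28 were above 0, 0 were called, 7 had an unadjusted *P* below 0.05 and 8 did not overlap. All that did not overlap were higher in *Atp6ap2* iECKO. Of all genes tested, 14.7% were higher without overlap and 15.0% lower without overlap. Summed normalized counts of the large subunit genes were 15185, 17317 and 17581 in control and 18681, 19605 and 19426 in *Atp6ap2* iECKO libraries (16694 ± 1314 and 19237 ± 490, SD, n = 3, 15.2% more in *Atp6ap2* iECKO). Those of the small subunit genes were 8627, 9280 and 9775 in control and 10243, 10933 and 10935 in *Atp6ap2* iECKO libraries (9227 ± 576 and 10704 ± 399, 16.0% more). Both sums were lower in all control than in all *Atp6ap2* iECKO libraries. The ratio of the sums, large over small, was 1.76, 1.866 and 1.799 in control and 1.824, 1.793 and 1.777 in *Atp6ap2* iECKO libraries. Its means, 1.808 ± 0.054 and 1.798 ± 0.024 (SD, n = 3), differed by less than the spread between libraries. *Mrps25* had the highest counts of the small subunit genes, with 1857, 1379 and 1564 in control and 1741, 1798 and 1734 in *Atp6ap2* iECKO. It was lowest in control replicate 2, where the ratio was highest. *Mrps25* shares 69.8% of its exon bases with *Nr2c2* on the opposite strand, and its part in the ratio was not tested. As a share of the library total, the summed counts of the 78 genes were 18.6% higher in *Atp6ap2* iECKO libraries, without overlap.

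**Figure D3:**
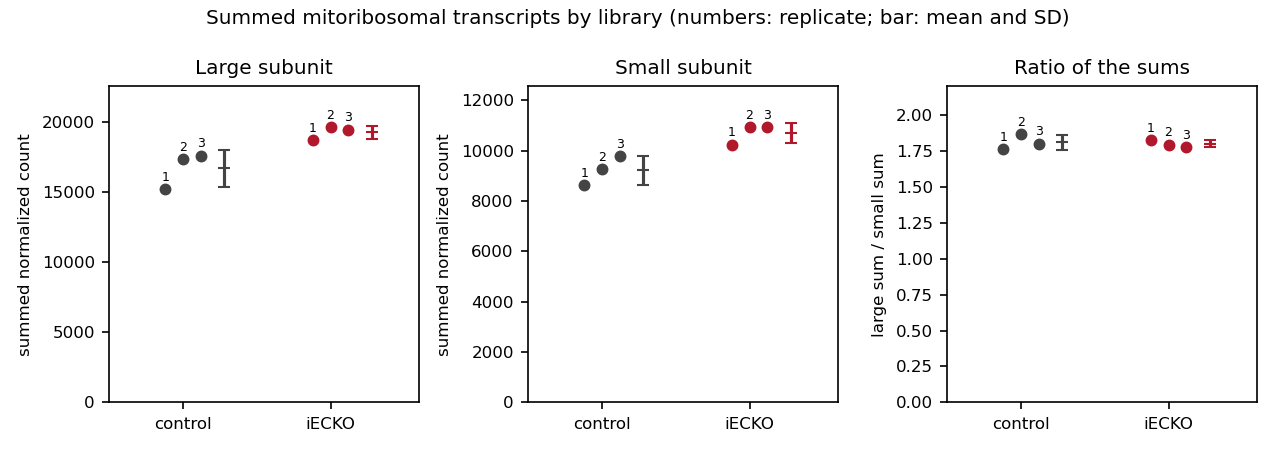
Summed normalized counts of the large (49) and small (29) subunit genes and the ratio of the sums, by library (numbered by replicate) and genotype, with mean and SD. The sums do not overlap between genotypes (16694 and 19237 on average for the large subunit), while the ratio does (1.808 and 1.798).

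Control replicate 1 was the lowest library for many members. It held the lowest value of 56 of the 78, whereas *Atp6ap2* iECKO replicates 2 and 3 held the highest value of 25 and 21. The share of all genes with their lowest value in that library is not given here. Relative to the control mean, the median member was at -0.15, 0.05 and 0.11 on the log2 scale in control replicates 1 to 3 and at 0.19, 0.23 and 0.22 in *Atp6ap2* iECKO replicates 1 to 3. In control replicates 1 to 3, the median of all genes tested was at -0.01, 0.01 and 0.0. That of tested genes in the members' range of level was at -0.06, 0.02 and 0.04, so it was also lowest in control replicate 1. Without control replicate 1 the median log2 difference was 0.17, with 60 of 78 members above 0, and *Mrpl12* was still called. Within the 4 libraries with *Xist* the median was 0.25, with 72 above 0, and 0 members as well as 0.0% of all genes tested were called, so that this fit bears on the size of the differences and not on the calls. Between the 2 libraries without it, 1 a genotype and with no test, the median was 0.17. Beside these, the proliferation sums were 16322, 29852 and 15685 in control replicates 1 to 3 and 38106, 43473 and 35490 in *Atp6ap2* iECKO replicates 1 to 3, and the mural marker sums 15056, 21323 and 22114 and then 7961, 6369 and 6160. Their part in the members' levels was not tested.

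The symbol and the place in the ribosome differ for 3 members. *Mrps30* and *Mrps18a* encode proteins of the large subunit despite their names, and *Mrps36* encodes a protein now assigned to the 2-oxoglutarate dehydrogenase complex. *Mrps30* had 196.7, 351.2 and 295.5 in control and 263.7, 322.7 and 323.9 in *Atp6ap2* iECKO libraries, and *Mrps18a* had 407.2, 391.7 and 330.3 against 340.5, 435.9 and 414.8, with overlap for both. *Mrps36* had 120.1, 143.9 and 173.3 against 156.6, 154.2 and 152.2. All *Atp6ap2* iECKO values of *Mrps36* lay within the control range. With these 3 placed by structure, the median difference was 0.19 for 51 large and 0.24 for 26 small subunit genes, and the ratio of sums was 2.059 ± 0.082 and 2.025 ± 0.014 (SD, n = 3).

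By origin, the 46 members with a bacterial counterpart had a median log2 difference of 0.23 (42 above 0, 19 without overlap), and the 31 found only in mitochondria also had one of 0.23 (28 above 0, 9 without overlap). Higher without overlap were 35.9% of all members, 14.7% of all genes tested and 17.8% of tested genes in the members' range of level. By site, the 3 stalk genes did not overlap between genotypes. Beside *Mrpl12*, these were *Mrpl10*, which anchors the stalk (415.9, 464.5 and 417.5 against 516.7, 490.1 and 518.0), and *Mrpl11* at its base (266.9, 235.2 and 243.4 against 280.0, 299.5 and 299.2). Their log2 differences, 0.23 and 0.24, did not pass the threshold (adjusted *P* = 0.247 and 0.339 by limma). The 8 genes of proteins around the peptide exit had a median of 0.15, the 8 of the central protuberance, the crest of the large subunit, 0.10, and the 8 of the small subunit head 0.22. Within these sites single genes ranged widely, for instance *Mrpl46* of the central protuberance (0.63, adjusted *P* = 0.0992 by limma) beside *Mrpl27* (0.00), or *Mrpl44*, related to ribonuclease III, at the exit (0.62, adjusted *P* = 0.141 by limma) beside *Mrpl23* (-0.03).

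Levels of the members were then compared per kb of transcript, since the normalized counts grow with transcript length (418 to 7300 bases, median 1253). In control iLECs they spanned 37.0-fold, with a median of 231.3 normalized counts per kb (quartiles 109.1 and 336.3), 253.3 for the large and 229.2 for the small subunit. The 5 highest were *Mrpl52* (821.5 ± 184.2, SD, n = 3), *Mrps21* (798.8 ± 44.4), *Mrpl33* (792.5 ± 102.6), *Mrpl20* (623.6) and *Mrpl27* (595.0). The first 3 differed from each other by less than their SDs. The 5 lowest were *Mrpl47* (22.2 ± 5.9), *Mrpl19* (42.8 ± 9.2), *Mrpl35* (47.3), *Mrps35* (57.3) and *Mrpl32* (61.4). With the length of the longest principal transcript instead, *Mrpl1* (45.7) entered and *Mrpl32* left the 5 lowest. Reads in the libraries do not record strand by the kit's design, so those of *Mrpl47*, which shares 24.2% of its exon bases with *Actl6a* and *Ndufb5*, and of *Mrpl19*, which shares 36.0% with *Gcfc2*, cannot be told from those of these opposite genes there. The order held between genotypes (Spearman's rho 0.98 over 78 genes, between the control and the *Atp6ap2* iECKO means, with the same lengths). *Mrpl12*, 20th of the 78 in control, was at 339.1 ± 51.9 per kb in control and 540.9 ± 39.0 in *Atp6ap2* iECKO iLECs.

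**Figure D4:**
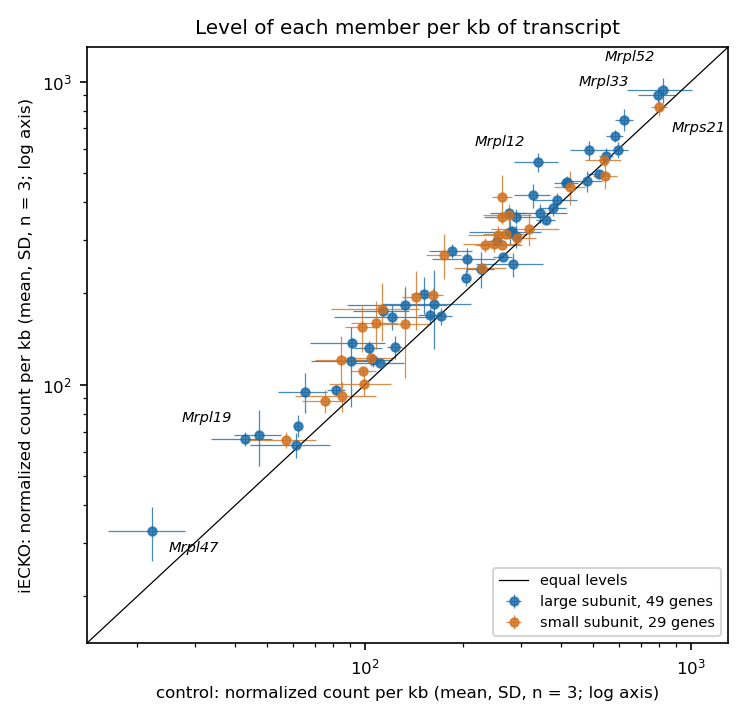
Normalized count per kb of transcript of the 78 members in control (x, log axis) and *Atp6ap2* iECKO (y, log axis) iLECs, as mean and SD over 3 libraries; the line marks equal levels. Points follow the line over a 37.0-fold range, and most lie above it, *Mrpl12* (339.1 and 540.9) among the farthest.

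The members were also split by their mean normalized count, not per kb, without a test. The 39 members below a mean normalized count of 307.3 had a median log2 difference of 0.32, and the 39 at or above it 0.17. Tested genes of the same ranges of level had medians of 0.01 and 0.03. Single genes at both ends of the order per kb varied. *Mrpl19*, second lowest, had 167.1, 259.2 and 216.3 in control and 328.0, 314.4 and 350.4 in *Atp6ap2* iECKO libraries (0.65, standard error 0.19, adjusted *P* = 0.0736 by limma), whereas *Mrps21*, second highest, had 335.4, 358.6 and 374.8 against 368.5, 387.3 and 343.3 (0.04, standard error 0.12). The lowest, *Mrpl47*, had 52.16, 89.34 and 82.75 against 85.91, 129.7 and 116.9, with overlap (0.58, standard error 0.29), and *Mrpl32*, also among the 5 lowest, had a difference of 0.07. Among the 5 highest, *Mrpl52* had one of 0.21, *Mrpl33* of 0.20 and *Mrpl20* of 0.26. Leaving out the 23 members that share exon bases with another coding gene left 55, of which 53 were above 0, with a median of 0.23.

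The promoter features and neighbours described above were then set beside the differences, without a test. Members with the NRF1 core had a median log2 difference of 0.11 and those without it 0.23, those with the ETS core 0.19 and without 0.23, and those with the YY1 core 0.29 and without 0.19. The 19 members with a head-to-head neighbour had a median of 0.32, and the other 59 one of 0.19. The neighbours had a median of 0.09 over the 18 tested, 11 above and 7 below 0, and in 8 pairs the signs were opposite. *Mrps27* and *Ptcd2*, whose starts are 81 bases apart, had differences of 0.68 and -0.03. *Mrpl57* and *Ska3*, a kinetochore gene, start 49 bases apart and had 0.23 and 0.77, and *Ska3* was the 1 neighbour called (adjusted *P* = 0.0412 by limma). *Mrpl51* and *Ncapd2*, a condensin gene, had 0.37 and 0.66, and neither passed.

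The remaining machinery of mitochondrial translation was read from lists of its other parts. Beside the counts of these and the following lists, 50.7% of all genes tested were above 0, 3.28% were called higher and 4.97% lower. Mitoribosomal proteins without an Mrp symbol had a median log2 difference of 0.20 (5 tested, 4 above 0, 0 called). The smallest *P* among them was that of *Chchd1*, a small subunit protein, with 268.1, 205.9 and 269.6 in control and 298.0, 334.5 and 394.0 in *Atp6ap2* iECKO libraries (0.47, adjusted *P* = 0.150 by limma). Assembly factors had a median of 0.16 (27 tested, 21 above 0, 1 called higher). The called one was *Trub2*, a pseudouridine synthase, with 459.3, 557.8 and 549.9 against 695.2, 863.4 and 831.1 (0.61, adjusted *P* = 0.0317 by limma). Translation factors had a median of 0.26 (15 tested, 8 above 0, 1 called higher). *Lrpprc*, which stabilizes mitochondrial messenger RNAs, had 785.4, 835.4 and 731.4 against 1009, 1109 and 1217 (0.50, adjusted *P* = 0.0300 by limma). The genotypes did not overlap for *Trub2* or *Lrpprc*. With each library left out, *Trub2* kept its call in 1 of 6 fits, without *Atp6ap2* iECKO replicate 1 (adjusted *P* 0.0293 to 0.123 by limma), and *Lrpprc* in 2, without control replicate 2 or *Atp6ap2* iECKO replicate 1 (0.0321 to 0.121). The *Xist* covariate also ended the call of *Lrpprc* (0.0514).

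Mitochondrial aminoacyl-tRNA synthetases, which charge the transfer RNAs, had a median of 0.28 (17 tested, 14 above 0, 0 called). The smallest *P* was that of *Rars2*, the arginyl enzyme (0.53, adjusted *P* = 0.132 by limma). Genes of mitochondrial transcription and RNA processing had a median of 0.12 (18 tested, 15 above 0), and *Hsd17b10*, a subunit of mitochondrial ribonuclease P, was called lower, with 705.3, 644.7 and 736.7 in control and 539.1, 475.7 and 490.5 in *Atp6ap2* iECKO libraries (-0.47, adjusted *P* = 0.0396 by limma). Its direction was opposite to that of most of its list, and its call was lost in all 6 fits that leave out a library (adjusted *P* 0.0513 to 0.146 by limma), with library size scaling (0.0687) and with the *Xist* covariate (0.0713). Regulators of mitochondrial biogenesis had a median of 0.10 (10 tested, 7 above 0), and *Myc* was called higher, with 803.1, 827.6 and 545.2 against 1228, 1172 and 1385 (0.82, adjusted *P* = 0.0274 by limma). The call of *Myc* was lost without *Atp6ap2* iECKO replicate 1, 2 or 3 (0.055, 0.0754 and 0.107) and kept without any 1 control. Tricarboxylic acid cycle genes had a median of 0.09 (17 tested, 15 above 0), and *Mdh2*, the mitochondrial malate dehydrogenase, was called higher (0.28, adjusted *P* = 0.0471 by limma). The call of *Mdh2* was lost in all 6 fits that leave out a library (0.0744 to 0.16), with no filter (0.0612), with the *Xist* covariate (0.0912) and with robust empirical Bayes (0.0502). For comparison, 80 genes of cytosolic ribosomal proteins and close relatives had a median of -0.04 (26 above 0, 3 called higher, 0 lower). Their differences ranged from -0.53 to 2.38. The 81 respiratory chain subunits had a median of 0.06 (53 above 0, 0 called higher, 2 lower) and a range of -1.81 to 0.42. The genes of complex II stand both among the respiratory chain subunits and in the tricarboxylic acid cycle list.

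**Figure D5:**
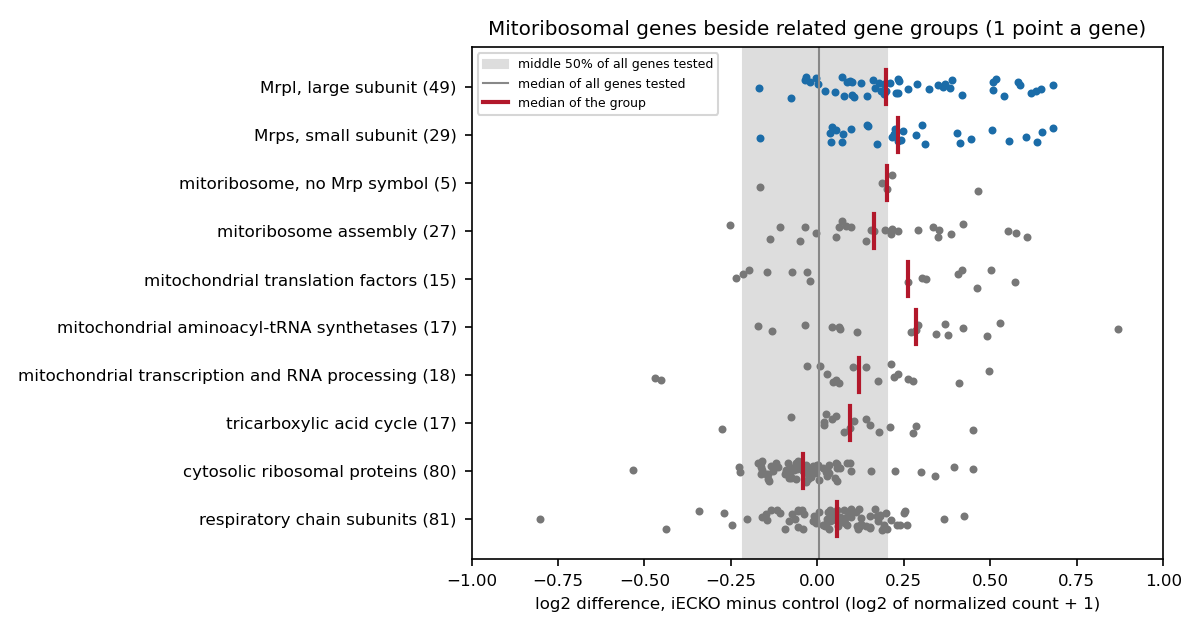
Log2 difference (*Atp6ap2* iECKO minus control) of each gene, 1 point a gene, for large and small subunit members and related gene groups, with group sizes in parentheses, the median of each group as a bar and the middle 50% of all genes tested shaded; 4 points beyond 1 on either side are not drawn. The medians of the members are 0.20 and 0.23, and those of cytosolic ribosomal proteins and respiratory chain subunits -0.04 and 0.06.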

How the data were processed

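RNA-Seq libraries of 3 control and 3 *Atp6ap2* iECKO iLEC samples (TruSeq v2 kit) were aligned by the authors to mm10 and quantified with BaseSpace tools. The authors deposited 1 table whose values are a normalized signal, called normalized counts here. The labels call them raw counts, but most have decimals, and in all libraries the median gene stood at 1.0036 of its geometric mean over the libraries. Only 21.1% to 40.8% of low values were whole multiples of the most frequent low value within 0.01, so reads could not be recovered and no count model was run. The depth in reads is unknown, and errors are the SD or standard error between 3 biological replicates.

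The 14456 genes that reached a normalized count of 10 in 3 or more libraries were tested on log2(normalized count + 1) with limma 3.58.1 in R 4.3.3 (mean-variance trend, no covariate), with Benjamini-Hochberg adjustment over all of them and a threshold of 0.05. Fold changes on this scale understate those of low genes. "Called" means past this threshold. The code was tested on simulated data. Coordinates and lengths are from GENCODE M21 (GRCm38, the same assembly as mm10), and a length is the median over transcripts matched to RefSeq. Python 3.11.15, scipy 1.17.1, pandas 2.3.3 and matplotlib 3.10.9 were used.

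The members, gene lists and tests were chosen with earlier results of these data known. Named genes were members past the threshold, the 5 highest and 5 lowest per kb, the 3 largest rises and falls, 3 members whose symbol and place in the structure differ, and in each related list the genes past the threshold or the 1 with the smallest *P*. Others are named as chosen afterwards: some of the members next by *P* value, *Mrps25*, and stalk, exit and neighbour examples. Alternatives were other pseudocounts, filters, scalings, thresholds and variance models, the replicate number or *Xist* as covariate, and each library left out. Another length rule was added after the data were seen.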

Additional observations from a re-analysis of the deposited data

How the results depend on the processing

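The median log2 difference of all members (0.22) was 0.17 to 0.28 with each library left out, 0.26 with library size scaling, which moved the median of all genes to 0.05, and above 0 under every alternative run. For the small subunit it was 0.12 between the 2 libraries without *Xist*, 1 a genotype. The number of members called higher (1) was 3 with the replicate block (*Mrpl12*, *Mrps27* and *Mrps28*, where 670 of all genes were called higher), 0 without the mean-variance trend, 0 in the libraries with *Xist*, 0 at an adjusted *P* below 0.01, 8 below 0.1, and 0 to 2 with each library left out. *Mrpl12* passed 0.05 in 12 of 17 alternatives (adjusted *P* 0.0164 to 0.236 by limma). Over all genes, 474 were called higher and 719 lower. With the *Xist* covariate 248 were higher, without the trend 69 and 235, in the libraries with *Xist* 0 and 0, below 0.01 8 and 82, below 0.1 908 and 1079, and with each library left out 28 to 460 and 178 to 658. The cause of these shifts was not tested, although leaving out libraries also leaves fewer samples. The large-to-small ratio differed by -0.01, and with each library left out by -0.034 to 0.018, reversing without control replicate 2 (0.018) and without *Atp6ap2* iECKO replicate 3 (0.00017).

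The difference changed sign under some alternative for 10 named members. With each library left out, they ranged from -0.33 to 0.0019 for *Mrpl14*, -0.0453 to 0.06 for *Mrpl27*, -0.0395 to 0.29 for *Mrpl32*, -0.0164 to 0.18 for *Mrps18a*, -0.0027 to 0.09 for *Mrps21*, -0.09 to 0.32 for *Mrps30* and -0.0333 to 0.23 for *Mrps36*. In the libraries with *Xist*, *Mrpl14* was at 0.0464 and *Mrps18a* at -0.09. Between the 2 libraries without *Xist*, it was -0.05 for *Mrpl33*, -0.08 for *Mrpl52* and -0.03 for *Mrps35*, and below 0 for *Mrpl27* (-0.17), *Mrpl32* (-0.29) and *Mrps36* (-0.17) too. Of the called genes of related lists and *Atp6ap2*, *Myc* passed 0.05 in 12 of 17 alternatives, *Trub2*, *Lrpprc* and *Atp6ap2* in 10, *Hsd17b10* in 7 and *Mdh2* in 5, with a single direction each. Without the mean-variance trend or in the libraries with *Xist*, none of these 6 passed (adjusted *P* 0.0728 to 0.307 by limma). The replicate block ended the call of *Mdh2* (0.0597). Same-numbered libraries correlated by 0.252, 0.114 and 0.078 in their deviations, against -0.208 to 0.1 for other pairs. Whether the numbers mark a pairing was not tested. The main fit did not use them, and the replicate block is given as an alternative. Under another length rule, levels per kb correlated with those used here by a Spearman's rho of 0.98 over 78 members. It moved *Mrps17* from 248.6 to 59.3 and *Mrpl3* from 281.7 to 163.8 normalized counts per kb. As the number of reads is unknown, depth limits are not given.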
